A study of Mus musculus with 18 samples.

Results

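The small RNA table of this testis study lists 14 candidate 5-methylcytosine (m5C) sites in 5 aspartate tRNA genes, out of 192 sites in 128 small RNAs. They are all rows whose name begins with tRNA-Asp-. No measured value enters that rule, although earlier results of these data were known when it was set. Small RNA was taken from testes of adult mice, wild-type (WT) or labelled Nsun7 knockout, and each genotype has 3 small RNA libraries. The labels name neither the knockout allele nor the strain, and do not say whether the libraries of a genotype came from different animals, so p-values here measure only the spread between libraries, which may be technical. RNA was treated with an ultrafast bisulfite reagent, which turns unmethylated cytosine into uracil, and the share of reads that still show C at a position is its m5C level. Unmethylated cytosine that escaped conversion would count as m5C too. The tRNA rows hold no check of the knockout itself.

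Aspartate tRNA is the classic substrate of DNMT2 (gene Trdmt1), an enzyme related to DNA methyltransferases that methylates a cytosine in the anticodon loop. A different enzyme, NSUN2, methylates cytosines where the variable loop meets the T stem in many tRNAs, aspartate tRNA included. Both marks are known to protect tRNAs from cleavage, and DNMT2 acts better on aspartate tRNA whose anticodon carries the modified base queuosine. NSUN7 is a relative of NSUN2 that is expressed in testis, and the series title describes it as catalytically inactive. Comparing the genotypes asks whether any site of these tRNAs depends on Nsun7, and comparing sites within a gene sets the DNMT2 position beside the NSUN2 positions of the same molecule.

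In 4 of the 5 genes the listed sites had the same spacing. The first site was followed by others 9 and 10 bases downstream. The first is called here the anticodon-loop candidate, and the others the +9 and +10 variable-loop candidates. The names rest on this spacing, since the table carries no tRNA numbering. The coordinates are the table's, on the build GRCm39 of the submitters' processing notes. In tRNA-Asp-GTC-1-11 the sites lay on chromosome 13 at 22095520, 22095529 and 22095530. In tRNA-Asp-GTC-1-5 they lay on chromosome 1 at 170929977, 170929986 and 170929987. Those of tRNA-Asp-GTC-3-1 were on chromosome 2 at 113933885, 113933894 and 113933895, and those of tRNA-Asp-GTC-1-9 on chromosome 11 at 7819814, 7819823 and 7819824. The fifth gene, tRNA-Asp-GTC-1-10, had 2 neighbouring sites on chromosome 11, at 68931856 and 68931857, and no listed site upstream. Every row of the table carries a plus sign for strand. If that sign is not the strand of tRNA-Asp-GTC-1-10, its sites stand in the opposite order, so they are called only the lower and the higher coordinate.

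The 5 genes differed in depth by orders of size, which sets how firmly each can be read. The +10 site was covered by 176415 to 196281 reads per library in tRNA-Asp-GTC-1-11 and by 19202 to 61510 in tRNA-Asp-GTC-1-5. It was covered by 73 to 98 reads in tRNA-Asp-GTC-3-1 and by 9 to 67 in tRNA-Asp-GTC-1-9, while the higher coordinate of tRNA-Asp-GTC-1-10 had 38 to 64. In the naming scheme of these genes, members that share the number after the anticodon encode the same mature tRNA, so the 4 genes named GTC-1 are near-identical copies. The sources used here do not say how the authors divided reads among such copies, and values of a single copy are uncertain to that extent. Summed over all listed sites the libraries held 4674265 to 5096438 reads of coverage, of which the aspartate sites took 11.9% to 13.4%. Exact binomial (Clopper-Pearson) 95% intervals on a single library reached at most 0.252 points from the level in tRNA-Asp-GTC-1-11 and 0.713 in tRNA-Asp-GTC-1-5. They reached 13.2 points in tRNA-Asp-GTC-3-1, 17.7 in tRNA-Asp-GTC-1-10 and 40.2 in tRNA-Asp-GTC-1-9, but such intervals hold counting error alone, because reads lacking molecular identifiers may repeat 1 molecule.

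The anticodon-loop candidate was nearly fully methylated and steady in the 2 deep genes. In tRNA-Asp-GTC-1-11 its level was 97.4%, 97.5% and 97.4% in the WT libraries and 97.5%, 97.5% and 97.5% in the knockout libraries. In tRNA-Asp-GTC-1-5 it was 97.8%, 97.8% and 97.9% in WT and 97.9%, 97.7% and 97.8% in the knockout. The 6 libraries thus stood within 1 point of one another and of the other gene. The shallower tRNA-Asp-GTC-3-1 had 96.9%, 96.6% and 96.6% in WT and 97.1%, 96.6% and 94.7% in the knockout.

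The +9 candidate was the least methylated position of both deep genes. In tRNA-Asp-GTC-1-11 the 3 WT libraries had 55.5%, 58.6% and 54.3% and the knockout libraries 54.4%, 57.8% and 53.5%. In tRNA-Asp-GTC-1-5 the values were 63.0%, 61.1% and 57.5% in WT and 58.6%, 60.9% and 57.5% in the knockout. The genotypes overlapped at both. One base further, the +10 candidate of tRNA-Asp-GTC-1-11 stood at 88.0%, 89.3% and 88.6% in WT and 87.9%, 89.0% and 87.9% in the knockout. That of tRNA-Asp-GTC-1-5 stood at 88.5%, 86.6% and 86.6% in WT and 86.0%, 86.2% and 85.8% in the knockout. Levels therefore fell in the order anticodon loop, +10, +9 in all 6 libraries of both genes, and no position's range touched another's.

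**Figure D1:**
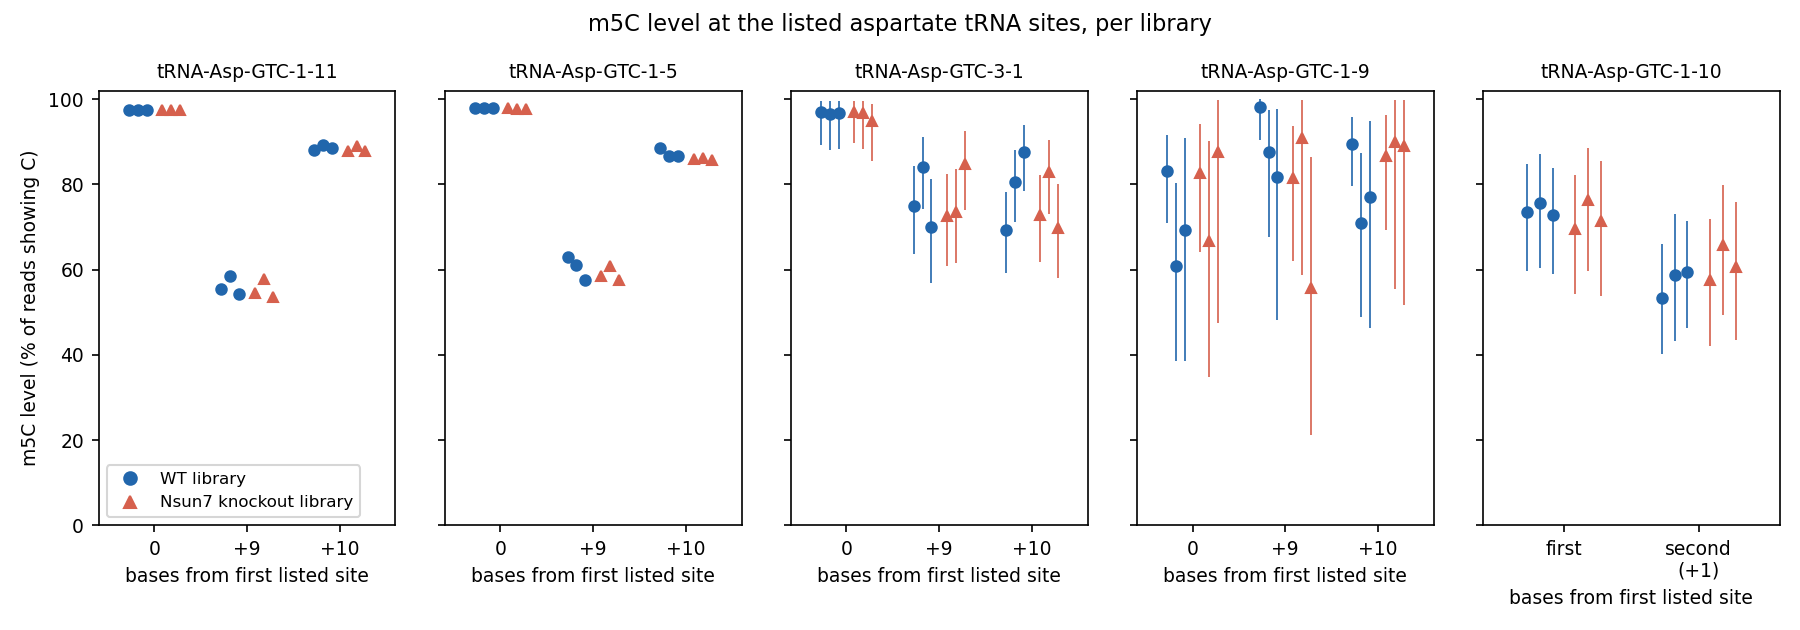
m5C level in percent of reads showing C (vertical axis) at each listed site (horizontal axis, bases from the first listed site) in the 5 aspartate tRNA genes. Circles are the 3 WT and triangles the 3 Nsun7 knockout libraries, and bars are exact 95% binomial intervals. In tRNA-Asp-GTC-1-11 and tRNA-Asp-GTC-1-5 the first site lies above 97%, the +9 site between 53.5% and 63.0% and the +10 site between them, while bars widen in the 3 shallow genes.

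The differences between positions were tested with a quasi-binomial logistic model that takes the library as a block and was fitted to all 90 pairs of sites that share an RNA in the small RNA table. Of the 13 aspartate pairs 9 passed at an adjusted p of 0.05, where 70.0% of all pairs did, so a difference between sites of one tRNA is common in this table. The call had the first site higher in 7 of the 13 aspartate pairs and in 40.0% of all 90 pairs. In tRNA-Asp-GTC-1-11 the anticodon-loop candidate was higher than +9 by 41.8 ± 2.06 points and higher than +10 by 9.02 ± 0.606 (SD, n = 6). The adjusted p from the model was 2.90e-08 and 1.55e-07. In tRNA-Asp-GTC-1-5 the same differences were 38.0 ± 2.26 and 11.2 ± 0.980 points, with adjusted p of 3.34e-08 and 6.86e-07. The neighbouring +9 and +10 sites, read 1 base apart, differed by -32.8 ± 1.58 points in tRNA-Asp-GTC-1-11 and by -26.8 ± 1.63 in tRNA-Asp-GTC-1-5 (SD, n = 6), with adjusted p of 3.34e-08 and 1.55e-07. Reads can cover more than one of these sites, so the sites of a gene are not independent samples of molecules.

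Summing the reads of the 3 GTC-1 copies with 3 sites, an alternative chosen after seeing the data, removes the question of how reads were divided among these 3. Reads divided between them and tRNA-Asp-GTC-1-10 or other copies remain a question. The sum is mostly tRNA-Asp-GTC-1-11, which held 74.5% to 90.5% of its reads at +10. For the anticodon-loop candidate the WT mean was then 97.5% ± 0.0377 and the knockout mean 97.5% ± 0.0143 (SD, n = 3). The +9 site had 57.0% ± 2.12 and 55.7% ± 2.19, and the +10 site 88.5% ± 0.454 and 88.0% ± 0.593 (SD, n = 3). The differences from the anticodon-loop candidate were 41.2 and 9.24 points, and the pair model gave adjusted p of 2.71e-08 and 1.71e-07.

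tRNA-Asp-GTC-3-1 shared the high anticodon-loop level but not the step between the neighbouring sites. Its +9 site stood at 75.0%, 84.0% and 70.0% in WT and 72.6%, 73.5% and 84.8% in the knockout. Its +10 site stood at 69.4%, 80.6% and 87.7% in WT and 72.8%, 82.9% and 69.9% in the knockout. The anticodon-loop candidate was higher than +9 by 19.8 ± 6.83 points and than +10 by 19.2 ± 7.39 (SD, n = 6), in 6 of 6 libraries each, with adjusted p of 0.000794 and 0.000751. With the WT libraries alone these 2 differences no longer passed, at adjusted p of 0.0541 and 0.0565, and with the knockout libraries alone the first did not, at 0.0624. The +9 and +10 sites differed by -0.564 ± 11.5 points (SD, n = 6), with +9 the higher in 3 of 6 libraries and an adjusted p of 0.954. At 60 to 98 reads per library a step of the size seen in the 2 deep copies would exceed this spread, whereas one of a few points was not detectable at this depth.

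In tRNA-Asp-GTC-1-9 the order was not that of its deep copies. The anticodon-loop candidate stood at 83.1%, 60.9% and 69.2% in WT and 82.8%, 66.7% and 87.5% in the knockout. The +9 site had 98.2%, 87.5% and 81.8% in WT and 81.5%, 90.9% and 55.6% in the knockout, and the +10 site 89.6%, 70.8% and 76.9% in WT and 86.7%, 90.0% and 88.9% in the knockout. The last knockout value of each site rests on 8 or 9 reads, below the minimum of 10, and was left out of the fits. The anticodon-loop candidate differed from +9 by -15.5 points over the 5 libraries used (adjusted p = 0.0696) and from +10 by -10.3 points (adjusted p = 0.195), and +9 from +10 by 5.19 points (adjusted p = 0.223). Neither contrast with the anticodon-loop candidate passed, although without knockout replicate 1 the first did, at -19.7 points and an adjusted p of 0.0480. The second, lower in 6 of 6 libraries when all are used, passed with the dispersion left free (adjusted p = 0.0252) and in the exact sign-flip test (adjusted p = 0.0414). Its highest library at the anticodon-loop candidate, with C in 7 of 8 reads, stood at 87.5%, below the 97.4% of the lowest library of tRNA-Asp-GTC-1-11. The copy took 0.00434% to 0.0278% of the reads at the +10 site of the 3 copies, and the part that read assignment plays in its levels was not tested.

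In tRNA-Asp-GTC-1-10 the lower coordinate stood at 73.6%, 75.6% and 72.7% in WT and 69.6%, 76.3% and 71.4% in the knockout. The higher coordinate stood at 53.2%, 58.7% and 59.4% in WT and 57.4%, 65.9% and 60.5% in the knockout. The lower coordinate was thus the more methylated in 6 of 6 libraries, by 14.0 ± 3.86 points (SD, n = 6), with an adjusted p of 0.0224. By coordinate this is the reverse of the step in tRNA-Asp-GTC-1-11 and tRNA-Asp-GTC-1-5. There the lower coordinate of the neighbouring pair was the less methylated in 6 of 6 libraries. If tRNA-Asp-GTC-1-10 lies on the opposite strand, the order along the RNA would be the same, and its strand is not settled. The call was lost without WT replicate 1 (12.7 points, adjusted p = 0.0635) and without WT replicate 2 (13.4 points, adjusted p = 0.0501). The pair no longer passed with the 3 WT libraries alone (16.9 points, adjusted p = 0.138) or with the 3 knockout libraries alone (11.2 points, adjusted p = 0.273).

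The levels listed for the 2 deep copies also differed slightly. By their names they encode the same mature tRNA, and the part that read assignment plays in these differences was not tested. The anticodon-loop candidate of tRNA-Asp-GTC-1-11 was lower than that of tRNA-Asp-GTC-1-5 in 6 of 6 libraries, with a difference of -0.346 ± 0.124 points (SD, n = 6). Its +9 site was lower too, with a difference of -4.11 ± 1.76 points, again in 6 of 6 libraries. At both sites the exact two-sided sign-flip test over the 6 libraries gave p = 0.03125, the smallest it can give, and 0.0352 after adjustment over 9 comparisons between genes. The +10 site of tRNA-Asp-GTC-1-11 was higher in 5 of 6 libraries, by 1.84 ± 1.19 points (SD, n = 6, exact sign-flip p = 0.0625). The exception was WT replicate 1, at -0.461 points. Over the 4 genes with an anticodon-loop candidate its levels fell in the order tRNA-Asp-GTC-1-5, tRNA-Asp-GTC-1-11, tRNA-Asp-GTC-3-1 and tRNA-Asp-GTC-1-9, and no 2 genes' libraries overlapped. The mean of tRNA-Asp-GTC-3-1 was 1.05 points below that of tRNA-Asp-GTC-1-11, less than the SD of 2.39 points that counting alone gives a library of tRNA-Asp-GTC-3-1. At +9, tRNA-Asp-GTC-3-1 lay above both deep copies with no overlap, and at +10 it lay below tRNA-Asp-GTC-1-11 with no overlap. The other neighbours in these orders overlapped.

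The spread between libraries differed sharply between positions of one tRNA. In tRNA-Asp-GTC-1-11 the +9 level had an SD of 2.18 points in WT and 2.29 in the knockout, while counting reads alone would give 0.124. At the anticodon-loop candidate of the same gene the SDs were 0.0463 and 0.0122 points, against 0.0377 from counting. As a dispersion, where 1 stands for counting error alone, these positions had 324 and 0.812, and the +10 site had 70.4. tRNA-Asp-GTC-1-5 repeated the order, with 0.783 at the anticodon-loop candidate, 57.2 at +9 and 21.5 at +10. Among the 21 small RNA sites with a mean coverage of at least 10000 the median dispersion was 21.5, and 4 lay below 1, 2 of them these anticodon-loop candidates. Dispersion grows with depth wherever libraries truly differ, and these 21 sites differ in depth, so their values only give the setting and do not rank genes. Counting error is thus a small part of the uncertainty at the variable-loop sites of the deep copies. At +9 and at +10 of tRNA-Asp-GTC-1-11 the spread followed the replicate number. At each of these sites the replicates stood in the same order in both genotypes, with replicate 2 the highest. In tRNA-Asp-GTC-1-5 the order differed between genotypes at both sites. Whether same-numbered libraries shared a batch was not tested.

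**Figure D2:**
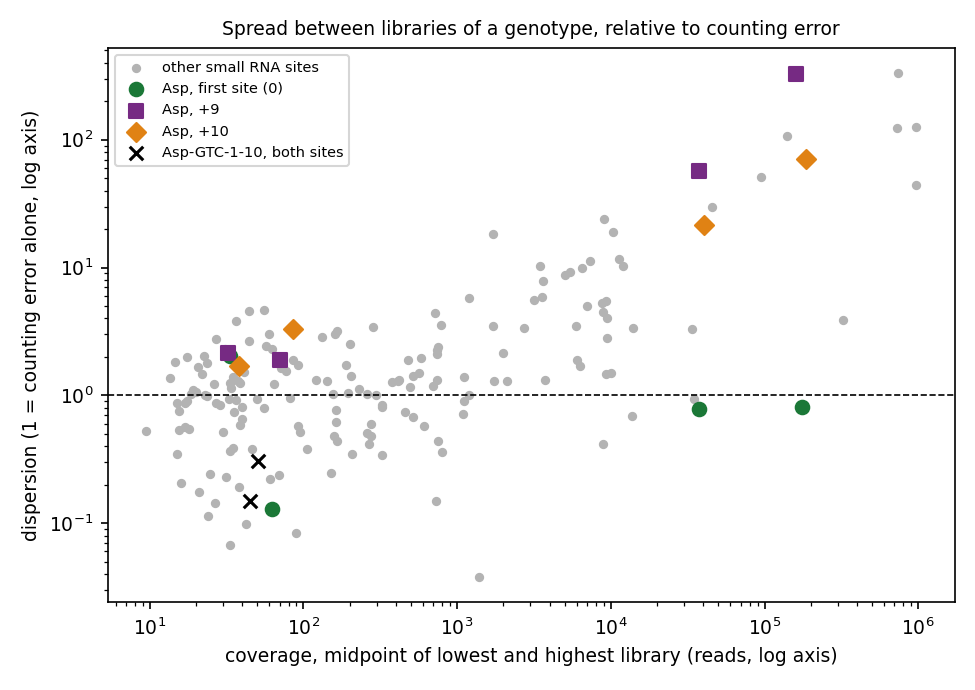
Dispersion of the C counts between libraries of a genotype (vertical log axis, 1 is counting error alone, dashed line) against coverage (horizontal log axis, reads) for the small RNA sites. Coloured symbols are the aspartate sites by position, and grey points all other sites. At the right, the anticodon-loop candidates of the 2 deep genes lie just below the dashed line at 0.812 and 0.783, and their +9 sites at 324 and 57.2.

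Coverage changed between neighbouring bases as well. In tRNA-Asp-GTC-1-11 the coverage of the +9 site was 85.2% to 87.9% of that of the +10 site 1 base away, and in tRNA-Asp-GTC-1-5 it was 92.2% to 96.1%. Among the 16 neighbouring pairs of the table with a mean coverage of at least 1000, the lower site had a median of 95.8% of the higher one, and 2 pairs had a lower share than tRNA-Asp-GTC-1-11. If all reads missing at +9 had lacked C, its mean level in tRNA-Asp-GTC-1-11 would be 48.0%, and if all had shown C, 61.8%. For tRNA-Asp-GTC-1-5 these bounds are 56.6% and 61.9%. They take the net difference in coverage as the missing reads. Reads that covered +9 but not +10 would make more reads missing, so the bounds are not strict. Even the upper bound stayed below the +10 level in 6 of 6 libraries of both genes. In tRNA-Asp-GTC-3-1 the +9 site had 74.1% to 90.4% of the coverage of +10, and its upper bound lay below the +10 level in 2 of 6 libraries.

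Between genotypes, no aspartate site passed the quasi-binomial model fitted to all small RNA sites. Of the 184 sites it tested, 0 were called (0%), and 7 had an unadjusted p under 0.05. limma on the levels called 0 of 173 sites, and again 7 had an unadjusted p under 0.05. The aspartate sites had adjusted p of 0.799 or more. The knockout level was higher at 5 of the 14 sites and lower at 9, with a median difference of -0.478 points, where the median over all tested sites was 0.00184. The genotypes' libraries did not overlap at 2 of the 14 sites, while 11.5% of all small RNA sites showed this. One aspartate site was higher in the knockout and 1 lower, and among all sites 5.73% were of the first kind and 5.73% of the second. Fisher's exact test on reads pooled per genotype called 5 of the 14 sites and 24 in the whole table of 192 sites. It treats pooled reads as the only source of error, and all 5 were sites of the 2 deep copies.

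The first of the non-overlapping sites was the anticodon-loop candidate of tRNA-Asp-GTC-1-11, where WT had 97.4% ± 0.0463 and the knockout 97.5% ± 0.0122 (SD, n = 3). The knockout was higher by 0.105 points. Its unadjusted p was 0.0202 and became 0.799 on adjustment over the table. The other was the +10 site of tRNA-Asp-GTC-1-5, where WT had 87.2% ± 1.11 and the knockout 86.0% ± 0.205 (SD, n = 3). WT replicates 2 and 3, at 86.6% each, also lay above the knockout libraries, at 85.8% to 86.2%. The size of the difference, -1.23 points, leaned on WT replicate 1, at 88.5% the highest of the 6 libraries, and was -0.591 points without it. The same library was the highest at the +9 site of this gene, where the difference of -1.56 points became -0.338 without it.

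The 95% limma intervals give a range for each genotype difference in these libraries. Their variance is partly shared over all tested sites. A site without any spread, Frmd5 at 100% in all 6 libraries, still had -0.912 to 0.912. Nor do they weigh read depth, and counting alone gives a library an SD of 6.65 points at the lower coordinate of tRNA-Asp-GTC-1-10. They are thus no measure of the smallest effect these libraries could show. For the anticodon-loop candidate the interval ran from -0.809 to 1.02 points in tRNA-Asp-GTC-1-11, from -0.971 to 0.882 in tRNA-Asp-GTC-1-5 and from -2.48 to 1.36 in tRNA-Asp-GTC-3-1. A loss of more than a few points at this position was thus outside the interval in each of the 3 genes. In tRNA-Asp-GTC-3-1 this holds less firmly, since counting alone gives a library an SD of 2.39 points there. For the +9 site the intervals ran from -5.31 to 3.46 points in tRNA-Asp-GTC-1-11 and from -6.07 to 2.95 in tRNA-Asp-GTC-1-5. For +10 they ran from -1.90 to 1.10 and from -3.01 to 0.550. In tRNA-Asp-GTC-3-1 they were wide, from -12.7 to 14.0 at +9 and from -19.6 to 11.6 at +10. In tRNA-Asp-GTC-1-10 the lower coordinate had -6.72 to 3.68 and the higher one -3.24 to 11.6. No limma interval was computed for tRNA-Asp-GTC-1-9, since 1 of its libraries fell below 10 reads. Its genotype differences over the libraries used were 3.66, -2.98 and 9.23 points from the first site to the last. With knockout replicate 3 kept in, by a coverage minimum of 1, they were 7.92, -13.2 and 9.42 points. The last ranged from 5.10 points without WT replicate 2 to 14.5 without WT replicate 1.

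**Figure D3:**
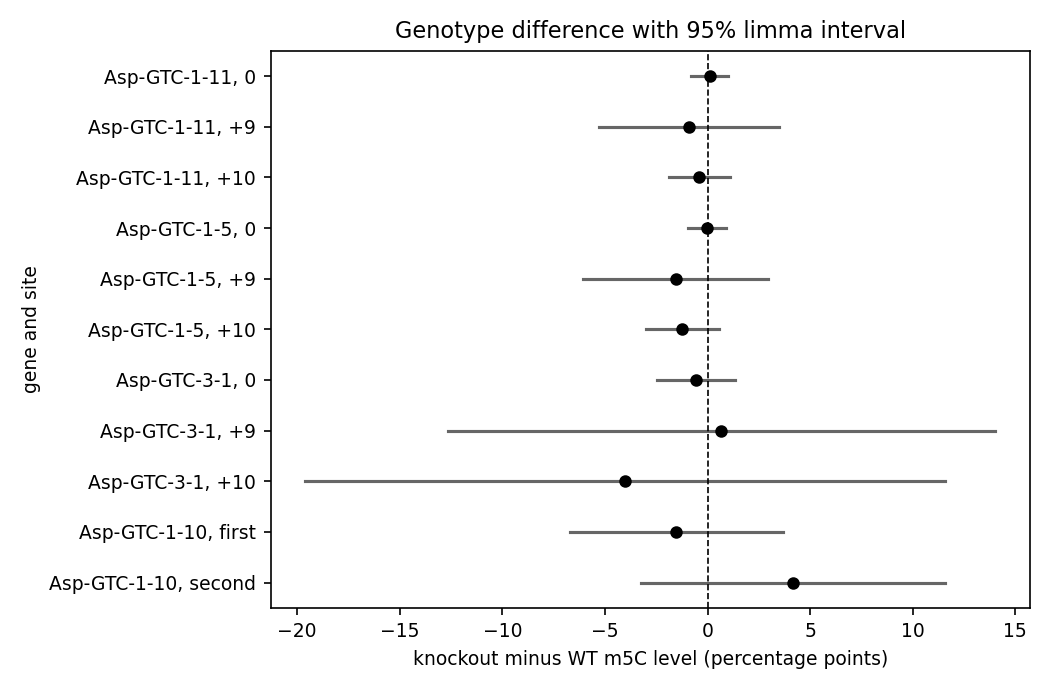
Knockout minus WT m5C level in percentage points (horizontal axis) at the 11 aspartate sites that no library covered by fewer than 10 reads, with 95% limma intervals as bars. All 11 intervals include 0, and they are narrowest at the first sites of tRNA-Asp-GTC-1-11 and tRNA-Asp-GTC-1-5, where they stay within about 1 point.

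Nor did the step between positions depend detectably on genotype. In tRNA-Asp-GTC-1-11 the anticodon-loop candidate exceeded +9 by 41.3 ± 2.14 points in WT libraries and by 42.3 ± 2.30 in knockout libraries (SD, n = 3). In tRNA-Asp-GTC-1-5 the figures were 37.3 ± 2.82 and 38.8 ± 1.75, and in tRNA-Asp-GTC-3-1 20.4 ± 7.13 and 19.1 ± 8.04 (SD, n = 3). The site-by-genotype term of the quasi-binomial model called 0 of 90 pairs (0%) and had 0 at an unadjusted p under 0.05. The 13 aspartate pairs had adjusted p of 0.983 or more. Against +10 the step was 10.6 ± 1.13 points in WT and 11.8 ± 0.245 in the knockout in tRNA-Asp-GTC-1-5, and its change of 1.19 points was 0.534 without WT replicate 1. Without that library the change against +9 in this gene fell to 0.281 points from 1.52. Its step against +10 did not overlap between genotypes, at 9.30 to 11.3 points in WT and 11.5 to 12.0 in the knockout. Nor did the step of tRNA-Asp-GTC-1-10, at 13.4 to 20.4 and 10.5 to 12.1 points. The +9 minus +10 difference of the shallow tRNA-Asp-GTC-1-9 did not overlap either, at 4.90 to 16.7 and -33.3 to 0.909. How many of the 90 pairs lack overlap was not counted.

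No coverage difference between the genotypes passed either. Normalised coverage of tRNA-Asp-GTC-1-11 at its deepest site (TMM-scaled CPM) was 60468, 67615 and 72311 in WT and 64684, 70607 and 76133 in the knockout. That of tRNA-Asp-GTC-1-5 was 20721, 7195 and 8314 in WT and 9910, 7434 and 8431 in the knockout. In tRNA-Asp-GTC-3-1 it was 33.0, 32.0 and 33.2 in WT and 27.5, 31.7 and 29.7 in the knockout, without overlap. The read counts of that gene before scaling overlapped, at 81 to 98 in WT and 73 to 82 in the knockout. How many RNAs of the table lack overlap in coverage was not counted. WT replicate 1 stood apart in tRNA-Asp-GTC-1-5, and it was also the highest library of tRNA-Asp-GTC-1-9, with 67 reads against 9 to 30 in the others. Within the 3 summed GTC-1 copies, tRNA-Asp-GTC-1-5 took 25.5% of the reads in that library and 9.53% to 13.3% in the other 5. edgeR's quasi-likelihood test on 1 coverage value per RNA called 0 of 128 RNAs (0%), with 5 at an unadjusted p under 0.05, and DESeq2 called 0 as well. The log2 fold change of knockout over WT was 0.08 ± 0.12 (SE) in tRNA-Asp-GTC-1-11 and -0.49 ± 0.34 in tRNA-Asp-GTC-1-5. The latter turned to 0.15 without WT replicate 1. It was -0.14 in tRNA-Asp-GTC-3-1, -0.40 in tRNA-Asp-GTC-1-10 and -1.01 in tRNA-Asp-GTC-1-9, with edgeR adjusted p of 0.744 or more in all 5 genes. Without WT replicate 1 the value in tRNA-Asp-GTC-1-9 was -0.18. Without knockout replicate 1 the value of tRNA-Asp-GTC-3-1 turned to 0.043 and that of tRNA-Asp-GTC-1-11 moved to 0.27. Without WT replicate 3 that of tRNA-Asp-GTC-1-10 was -0.22. Coverage after bisulfite treatment is a count of recovered reads, and fewer cells of a type and less RNA per cell cannot be told apart in whole testis.

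**Figure D4:**
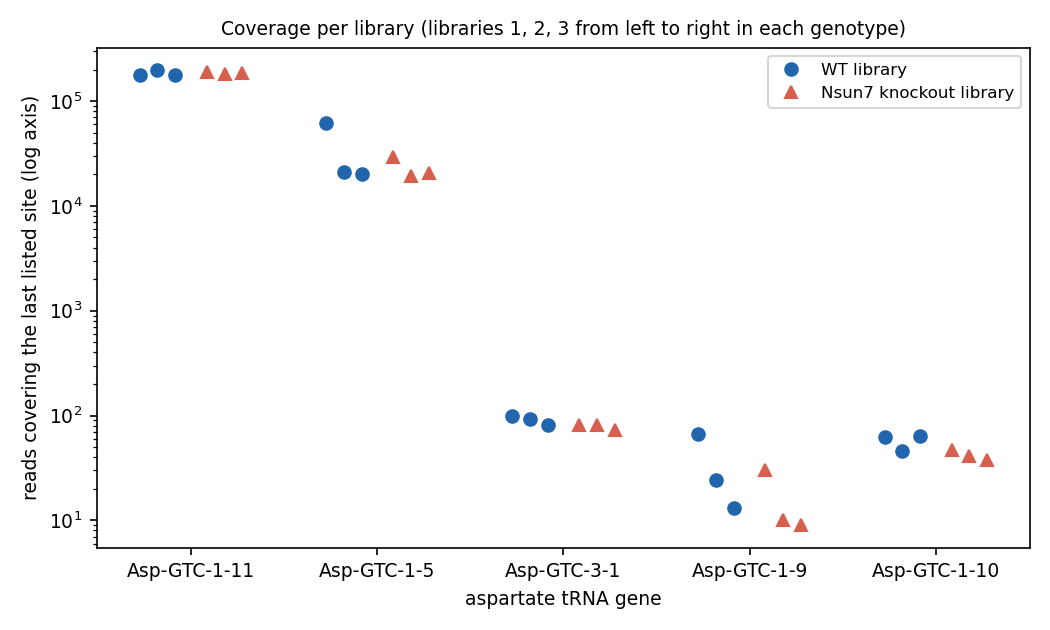
Reads covering the last listed site (vertical log axis) of each aspartate tRNA gene (horizontal axis) in the 3 WT (circles) and 3 Nsun7 knockout (triangles) libraries. tRNA-Asp-GTC-1-11 is level at 176415 to 196281 reads, while in tRNA-Asp-GTC-1-5 WT replicate 1 stands at 61510 reads against 19202 to 29203 in the other libraries.

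The other known DNMT2 substrates are glycine tRNA with the anticodon GCC and valine tRNA with AAC. Their listed sites numbered 15 in 4 genes and 3 in 1 gene. None of these 18 sites passed the genotype test of the quasi-binomial model, the lowest adjusted p being 0.799. The deepest, tRNA-Gly-GCC-2-8 on chromosome 13, had the same spacing of 9 and 10 bases after its first site at 23701409, and 1 more site beyond them. Over the 6 libraries its 4 sites had means of 86.3%, 33.2%, 82.8% and 75.7%. Here too the site 9 bases downstream was the lowest. The other 3 glycine genes, named after their values were seen, shared the spacing, but their first site was not the highest. The site 9 bases downstream was the lowest in tRNA-Gly-GCC-2-1 (34.4%) and tRNA-Gly-GCC-4-1 (24.7%). In these 2 genes the first site lay below the site 10 bases downstream, at 63.6% against 71.0% and 47.3% against 52.9%. The first site was the higher in 0 of 6 libraries of each, with adjusted p of 0.0153 and 0.00732 in the pair model. In tRNA-Gly-GCC-2-7, covered by 12 to 32 reads, the site 9 bases downstream was the highest, at 80.1% against 33.4% and 52.6%. The anticodon-loop candidate of tRNA-Asp-GTC-1-11 exceeded that of tRNA-Gly-GCC-2-8 by 11.2 ± 1.31 points, its +9 site by 22.5 ± 2.65 and its +10 site by 5.62 ± 0.859 (SD, n = 6). In tRNA-Asp-GTC-1-5 the excess was 11.5 ± 1.29, 26.6 ± 1.59 and 3.79 ± 1.32 points (SD, n = 6). Each of these 6 differences held in 6 of 6 libraries, with an exact sign-flip p of 0.03125 and 0.0352 after adjustment over the 9 comparisons. In tRNA-Val-AAC-2-1, covered by 8 to 54 reads, the 3 sites averaged 54.6%, 68.1% and 67.2%.

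Likeness in levels was measured as the Euclidean distance between mean levels at 3 sites in order. Among the 7 RNAs outside the aspartate family with exactly 3 listed sites, the smallest distances to tRNA-Asp-GTC-1-11 were those of tRNA-Thr-AGT-1-2 at 33.4 points, tRNA-Gly-TCC-2-1 at 41.9 and tRNA-Gly-TCC-1-5 at 42.6. The same 3 RNAs came first for tRNA-Asp-GTC-1-5, at 29.8 to 40.1 points. Their spacing differed from that of the aspartate genes, at 1 and 23 bases in tRNA-Thr-AGT-1-2 and 1 and 1 in the others. That limit leaves out RNAs with 4 sites. Over sites 0, 9 and 10 bases from the first, a comparison chosen after seeing the data, tRNA-Gly-GCC-2-8 lay closer than any of them, at 25.8 points from tRNA-Asp-GTC-1-11 and 29.3 from tRNA-Asp-GTC-1-5. The 4 RNAs outside the family with this spacing were all tRNA-Gly-GCC genes, and the other 3 lay 43.6 to 77.4 points from tRNA-Asp-GTC-1-11.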

How the data were processed

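Small RNA of testis was bisulfite-converted and sequenced in 3 WT and 3 Nsun7 knockout libraries. The submitters' processing notes name the build GRCm39 and the tools Bowtie2, HISAT2, SAMtools, cutadapt and Trimmomatic, and their roles, the assignment of reads among tRNA copies and the choice of sites are not given in the sources used here. For every site the file headers list a coverage count and a C count per library, deposited without normalization, and an m5C level that the authors gave as a fraction with 2 decimals. Percentages recomputed from the counts lay within 0.005, as fractions, of the deposited level. No sample column was left unmapped (0).

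Genotypes were compared per site by a quasi-binomial logistic model (own dispersion, at least 10 reads per library, at least 2 libraries per genotype, two-sided), and pairs of sites by the same model with the library as a block and a dispersion of at least 1. Coverage was compared with edgeR 4.0.16 (TMM, 1 row per RNA). Benjamini-Hochberg adjustment ran over each whole table, with a threshold of 0.05. limma 3.58.1, DESeq2 1.42.0 and R 4.3.3 were also used, and the tests were tested on simulated data. The text names every aspartate site, the deepest gene with at least 2 sites of the other DNMT2 substrates (tRNA-Gly-GCC and tRNA-Val-AAC) and the 3 RNAs nearest in levels. The members and lists were chosen with earlier results of these data known. The RefSeq gene table (GRCm38.p6) matched 0 of the 5 gene names, so no coordinates or sequences were taken from it.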

Additional observations from a re-analysis of the deposited data

How the results depend on the processing

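The 0 calls between genotypes, over all sites and over the aspartate sites, held under both other coverage minimums, a dispersion of at least 1, moderated dispersions, limma and each library left out. Fisher's exact test on pooled reads was the exception, with 24 calls over all sites and 5 over aspartate sites. Among site pairs the 63 calls became 41 in WT alone and 41 in the knockout alone, which leaves fewer libraries. They ranged from 57 to 63 with 1 library left out, and the 9 aspartate calls from 8 to 10. For pair and coverage differences between genotypes 0 calls were made under all alternatives run, but the exact permutation test of the pairs says nothing here, since its p cannot go below 0.1.

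The replicate block, with the replicate number as a term, made 0 calls over all sites and 0 over aspartate sites, and 0 in coverage. It also made 0 in the site-by-genotype comparison, where its sign-flip test over 3 numbered pairs cannot go below 0.25 and so could make none. Deviations of same-numbered libraries correlated at 0.0677, 0.102 and 0.0434 over 172 sites, not all above 0.1, so numbers were not taken as pairs. Even so, every library correlated best with its own number in these levels. In coverage over 112 RNAs same-numbered libraries correlated at 0.285, 0.270 and 0.0140. There WT replicate 3 correlated better with knockout replicate 2, at 0.219. At the least methylated site of tRNA-Asp-GTC-1-11, knockout minus WT was -1.16, -0.751 and -0.869 points in the 3 numbered pairs. The SDs there were 2.18 points in WT and 2.29 in the knockout. Unpaired tests and intervals count such shared variation as error. The replicate block gave an adjusted p of 0.784 at this site. In every other aspartate gene the sign changed between pairs at some site. At both variable-loop candidates of tRNA-Asp-GTC-1-11 and of tRNA-Asp-GTC-1-5 the knockout was lower in all 3 pairs. In tRNA-Asp-GTC-1-5 the differences were -4.41, -0.265 and -0.00453 points at the less methylated of them and -2.50, -0.380 and -0.819 at the other. In all 3 pairs the knockout was higher at the anticodon-loop candidate of tRNA-Asp-GTC-1-11 and the higher coordinate of tRNA-Asp-GTC-1-10. At all other sites the sign changed.

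Directions that turned were all of differences that had not passed the quasi-binomial or edgeR test, and the cause was not tested. Fisher's exact test on pooled reads is left aside in this. The +9 difference between genotypes in tRNA-Asp-GTC-3-1 was -0.147 with pooled reads, and that of the anticodon-loop candidate, negative in tRNA-Asp-GTC-1-5, was 0.0751 in the sum of 3 copies, of whose reads tRNA-Asp-GTC-1-11 holds most. The +9 minus +10 difference in tRNA-Asp-GTC-1-9 was -1.23 points with a coverage minimum of 1 and in the sign-flip test, and that in tRNA-Asp-GTC-3-1 was 1.78 in the knockout alone.

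With 1 library left out, genotype differences ranged from -2.22 to 0.284 points at +9 of tRNA-Asp-GTC-1-11. In tRNA-Asp-GTC-1-9 they ranged from -1.43 to 9.66 at the first site and -6.66 to 1.54 at +9. In tRNA-Asp-GTC-3-1 they ranged from -1.02 to 0.140, -3.25 to 4.49 and -8.94 to 0.193 from the first site to the last. The +9 minus +10 difference of tRNA-Asp-GTC-3-1 ranged from -3.67 to 2.85. Genotype changes in the steps ranged from -0.152 to 2.33 (first site to +9) and -1.47 to 0.352 (+9 to +10) in tRNA-Asp-GTC-1-11, and from -1.53 to 0.299 (+9 to +10) in tRNA-Asp-GTC-1-5. In tRNA-Asp-GTC-3-1 they ranged from -5.12 to 3.39, -0.795 to 8.49 and -2.68 to 10.3. The log2 coverage change ranged from -0.70 to 0.15 in tRNA-Asp-GTC-1-5 and -0.16 to 0.043 in tRNA-Asp-GTC-3-1. Depth limits tRNA-Asp-GTC-1-9 most, at 8 to 67 reads.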

Other observations

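Steps in coverage between neighbouring bases also stood out in 2 deep glycine tRNAs. In tRNA-Gly-CCC-2-2 1 listed site had 84.0% of the reads of the listed site beside it, and in tRNA-Gly-GCC-2-8 the site 9 bases after the first had 84.1% of the reads of the next one. These are the 2 deep pairs with a lower share than the +9 and +10 sites of tRNA-Asp-GTC-1-11, at 86.2%. At the other end the neighbouring sites of tRNA-Glu-TTC-1-1, the most covered RNA of the table, had 99.3%.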
